A study of Homo sapiens with 18 samples.

Results

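The 6 cultures of OCI-AML3 cells that received only the solvent DMSO form 2 sets, replicates 1 to 3 and replicates 4 to 6, which were set apart by their signals of p53-dependent genes. The split was chosen from measured values, namely the higher signals of p53 targets on the DMSO arrays of replicates 1 to 3. These 6 arrays are 6 of the 18 in the series. OCI-AML3 is an established human acute myeloid leukaemia line, with the genotype given as wildtype. The medium was RPMI with 10% fetal calf serum, and RNA was taken after 24 h of exposure to DMSO, to 2 µM RG7112 or to 500 nM HDM201, both inhibitors of MDM2. Each group has 6 arrays from samples that the labels call biological replicates. The labels do not say what separates replicates 1 to 3 from replicates 4 to 6, so a batch of culture, RNA or array work cannot be told apart from the state of the cells. They also do not say how cultures were kept separate, so p-values measure only the spread between these samples.

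p53 is a transcription factor that is kept scarce by MDM2, a ubiquitin ligase that binds it and sends it to the proteasome. MDM2 is itself a p53 target, which closes a feedback loop, and compounds such as RG7112 and HDM201 occupy the p53 pocket of MDM2 and let p53 build up. Its targets include CDKN1A (p21), which blocks cyclin-dependent kinases, death receptors and BCL2 family members, DNA repair factors and metabolic enzymes. Growing cells with functional p53 keep some of these genes transcribed at a basal level, without any drug.

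Signals are log2 values, so a difference of 1 is 2-fold, and every signed difference below is the mean of replicates 1 to 3 minus the mean of replicates 4 to 6. On the DMSO arrays the differences that define the sets are given as a description, with the mean and SD of 3 arrays each and with no test. The 12 arrays of drug-treated cells, replicates 1 to 3 against replicates 4 to 6 of both compounds, did not enter the choice and were tested with limma, with a mean for each compound and a term for the set, and with p adjusted (Benjamini-Hochberg) across the 21448 probes. A gene is said to have passed when that adjusted p was under 0.05. Earlier results of this series had already shown that the sets differ on treated arrays too, so these tests are not a blind check. They compare other arrays of the same numbered replicates.

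The arrays resembled each other closely. Medians were 6.44 to 6.57, and the correlation over probes was 0.9921 to 0.9958 within a DMSO set and 0.9909 to 0.9942 between the sets. Over all probes, the first principal component of the DMSO arrays (36.04% of the variance) did not follow the sets, with positive scores for replicates 2, 3 and 4 and negative ones for replicates 1, 5 and 6. The second component (23.03%) had positive scores for replicates 1 to 3 (21, 4.5 and 1.9) and negative ones for replicates 4 to 6 (-18.2, -0.5 and -8.7). It mainly set replicate 1 apart from replicate 4, while replicates 3 and 5 lay close together. Replicate 3 of RG7112 stood apart: its interquartile range was 3.45, where the other arrays had 3.70 to 3.91, and it had a mean correlation with its own group of 0.972 against 0.986 to 0.988 for the other RG7112 arrays. Treated results are therefore also given without it. Myeloid markers varied in level: LYZ (lysozyme, chosen after its values were seen) had a signal of 12.90 ± 0.02 and 12.50 ± 0.14 in the sets and SPI1, the myeloid transcription factor PU.1, 10.30 ± 0.03 and 10.28 ± 0.04 (SD, n = 3). Defining markers of T cells (CD3D, 3.88 ± 0.26 and 3.76 ± 0.17), B cells (MS4A1, 3.64 ± 0.13 and 3.75 ± 0.11) and epithelium (EPCAM, 4.40 ± 0.23 and 4.25 ± 0.21) lay near the bottom of the scale, whose lowest signals were 2.66 to 2.85. Other myeloid markers were below the array medians, namely MPO (5.38 ± 0.06 and 5.44 ± 0.08), CD14 (5.87 ± 0.36 and 5.70 ± 0.27) and ITGAM (5.86 ± 0.33 and 5.93 ± 0.36), and some lymphocyte list members were above them, such as NKG7 (7.38 ± 0.17 and 7.91 ± 0.10) and EBF1 (7.49 ± 0.08 and 7.06 ± 0.04). In these bulk samples fewer cells of a type and less RNA per cell cannot be told apart.

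Of the 21448 probes, 1525 had all arrays of replicates 1 to 3 above all arrays of replicates 4 to 6 (7.11%) and 1491 had them all below (6.95%). Both directions were nearly equal in number, and these shares are the background for every count below. Among the probes that did not overlap, 26 differed by at least 2-fold with replicates 1 to 3 higher (0.121%) and 18 with replicates 4 to 6 higher (0.0839%). They carry 23 and 16 gene symbols. Of the 23 genes, 5 were on the p53 lists used here (CDKN1A, PLK2, FUCA1, TRIM22 and TP53INP1), 2 on the monocyte list and 16 on no list, while none of the 16 in the other direction was on a p53 list. Just inside the 2-fold limit were TRIM22 and TP53INP1 (1.01 each) and MATN2 (-1.02), and just outside were CYFIP2 (0.95) and ADD3 (-0.97).

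The promoters of 3 p53 target genes that were higher in replicates 1 to 3 hold a p53 half-site in the 250 bases before their start, and are shown because they are the members in which the p53 recognition letters can be seen. The half-site is the 10-base unit of the p53 consensus, searched with no mismatch, and since the consensus is its own reverse complement a match counts for both strands. Capitals mark the match, which lies 132 bases before the start in PLK2, 49 in SESN1 and 59 in RPS27L. Sequences are RefSeq's on GRCh38.p14, all from the minus strand, at chr5:58460087-58460336 (PLK2), chr6:109008989-109009238 (SESN1) and chr15:63157478-63157727 (RPS27L).
PLK2: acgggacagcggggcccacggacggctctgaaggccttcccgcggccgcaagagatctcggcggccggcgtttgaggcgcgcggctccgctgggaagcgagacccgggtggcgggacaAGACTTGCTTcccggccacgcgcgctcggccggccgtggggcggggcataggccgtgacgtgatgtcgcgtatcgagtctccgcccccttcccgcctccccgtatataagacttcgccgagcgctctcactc
SESN1: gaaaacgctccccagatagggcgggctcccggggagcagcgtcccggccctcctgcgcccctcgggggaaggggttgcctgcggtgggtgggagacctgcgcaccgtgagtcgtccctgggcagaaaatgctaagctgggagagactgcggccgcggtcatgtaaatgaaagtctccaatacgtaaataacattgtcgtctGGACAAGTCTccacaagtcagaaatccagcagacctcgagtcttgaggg
RPS27L: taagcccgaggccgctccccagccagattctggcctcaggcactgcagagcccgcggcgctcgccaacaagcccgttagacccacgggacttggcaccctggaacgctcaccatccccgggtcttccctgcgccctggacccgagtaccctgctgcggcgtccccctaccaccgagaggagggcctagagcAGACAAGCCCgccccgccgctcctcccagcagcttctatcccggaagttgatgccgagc
A match is a description of letters and not a bound site. Of the p53 genes higher in DMSO replicates 1 to 3 that have a promoter in the table, 3 of 26 (11.5%) held a match, against 5 of 41 of the other p53 genes measured (12.2%) and 1008 of 14250 measured genes (7.07%). Both groups of p53 genes thus held the match in similar shares.

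The p53 target lists hold 80 genes, of which 73 were measured. On the DMSO arrays 30 of the 73 were higher in every array of replicates 1 to 3 than in any of replicates 4 to 6, 1 was the other way and 42 overlapped, where the background is 7.11% and 6.95% of probes. The median difference was 0.27, against 0.00 over all probes, and 57 of 73 differences were positive. The mean signal over the 73 genes was 7.70 ± 0.01 in replicates 1 to 3 and 7.42 ± 0.02 in replicates 4 to 6, far below the 9.08 ± 0.06 and 8.62 ± 0.02 of the same sets under RG7112. Since targets of p53 chose the sets, these counts describe the split. On the 12 treated arrays, 46 of the 73 passed with replicates 1 to 3 higher and none with replicates 4 to 6 higher, against 3.09% and 3.5% of all probes in these directions. Without replicate 3 of RG7112 it was 53. At an unadjusted limma p under 0.05 the counts were 57 and 0.

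**Figure D1:**
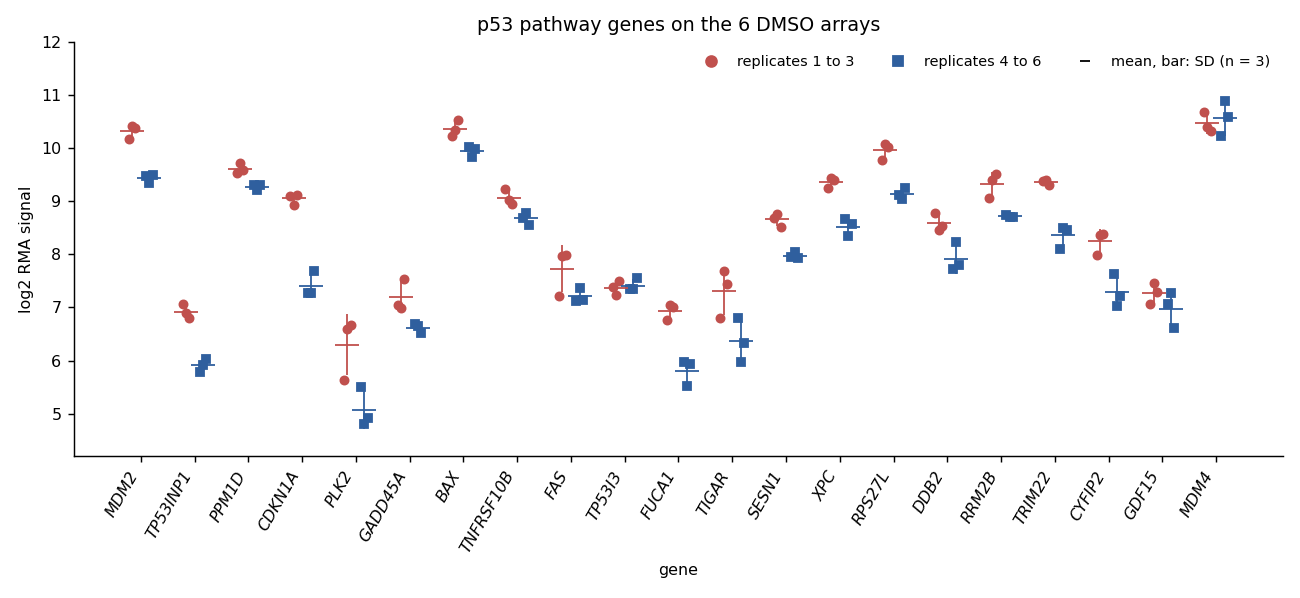
Log2 RMA signals of 21 p53 pathway genes on the 6 DMSO arrays. Points are single arrays (red circles, replicates 1 to 3; blue squares, replicates 4 to 6), horizontal lines are means and bars the SD of 3 arrays. CDKN1A, PLK2, TP53INP1, FUCA1 and TRIM22 are at least 2-fold higher in replicates 1 to 3, while FAS, TP53I3, GDF15 and MDM4 overlap.

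Among the arrest genes the difference was widest for CDKN1A. Its signals were 9.11, 8.94 and 9.13 on the DMSO arrays of replicates 1 to 3 and 7.27, 7.27 and 7.68 on those of replicates 4 to 6. All 3 arrays of the first set thus lay above the second by more than a doubling, and the means of 9.06 ± 0.10 and 7.41 ± 0.23 (SD, n = 3) differed by 3.15-fold. Under the compounds CDKN1A stood at 12.63 and 11.77 (RG7112) and 12.72 and 11.95 (HDM201), so the gap remained in treated cells at a smaller log2 size of 0.82 ± 0.09 (SE; limma adjusted p = 6.71e-05). PLK2, a polo-like kinase, had 5.63, 6.60 and 6.67 against 5.50, 4.80 and 4.92. Replicates 1 and 4 almost touched there, so the mean difference of 1.22 came with a standard error of 0.40, while the treated difference was 0.94 ± 0.15 (limma adjusted p = 0.00182).

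GADD45A, a stress-induced binder of the cell cycle machinery, differed by 0.57 on the DMSO arrays and by 0.87 ± 0.08 on treated ones (limma adjusted p = 2.26e-05). E2F7, an atypical E2F that represses cell cycle genes, moved from 0.44 to 1.19 ± 0.13 (adjusted p = 6.42e-05). Both genes were picked after their values were seen, as were SERTAD1, IER5, CCNG1, TP53BP1, POLH, PLTP, SPATA18 and EDA2R below. In all, 8 of the 11 measured arrest genes did not overlap on the DMSO arrays, with a median of 0.44, and 8 passed on treated arrays, with a median of 0.52. SERTAD1 (0.52) and IER5 (0.61) were among those that did both, whereas SFN (-0.04), which encodes the 14-3-3 sigma protein, overlapped.

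Of 11 measured genes of p53 and its regulators, 5 were higher in replicates 1 to 3 with DMSO, 1 in replicates 4 to 6 and 5 overlapped. MDM2 had signals of 10.17, 10.43 and 10.38 against 9.48, 9.34 and 9.50, and the sets were 1.85-fold apart (10.33 ± 0.14 and 9.44 ± 0.09). TP53INP1, a p53-induced protein that promotes phosphorylation of p53, had 7.07, 6.90 and 6.80 against 5.79, 5.92 and 6.02. Neither gene had an array of one set within the range of the other. PPM1D, the phosphatase Wip1 that switches the response off, differed by 0.35 and CCNG1 (cyclin G1) by 0.37. All 4 also passed on the treated arrays, at 0.33 ± 0.07 (limma adjusted p = 0.012) for MDM2, 0.65 ± 0.09 (0.0008) for TP53INP1, 0.50 ± 0.09 (0.00238) for PPM1D and 0.36 ± 0.08 (0.00998) for CCNG1. MDM4, the relative of MDM2 that binds p53, had 10.68, 10.40 and 10.33 against 10.23, 10.89 and 10.60. Its sets overlapped and the treated difference was 0.02 ± 0.10 (limma adjusted p = 0.929), and the regulators USP7 (0.04) and COP1 (0.06) also overlapped. TP53BP1 (53BP1), a DNA damage adaptor that binds p53, was the member that was lower in replicates 1 to 3, at 8.09 ± 0.08 against 8.29 ± 0.07. Its sets were separate in all 3 groups and it passed on treated arrays at -0.34 ± 0.07 (limma adjusted p = 0.0122).

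Of the p53 target lists, DNA repair genes had the highest share of separated members, 7 of 9. XPC, which recognises DNA lesions in nucleotide excision repair, had 9.26, 9.45 and 9.41 against 8.66, 8.34 and 8.57. DDB2, its partner in damage recognition, had 8.79, 8.46 and 8.54 against 7.73, 8.24 and 7.80. RPS27L, a ribosomal protein paralog, had 9.79, 10.08 and 10.03 against 9.12, 9.05 and 9.25. In all 3 genes the sets were separate, by 1.80-fold, 1.59-fold and 1.77-fold. RRM2B, the ribonucleotide reductase subunit induced by p53, differed by 0.60 and POLH, a translesion polymerase, by 0.41. On treated arrays the list was less uniform, since 4 of 9 passed. RRM2B did, at 0.64 ± 0.11 (limma adjusted p = 0.00251), while RPS27L (0.19 ± 0.12, limma adjusted p = 0.433) and DDB2 (0.24 ± 0.11, limma adjusted p = 0.23) did not, though DDB2 did without replicate 3 of RG7112 (0.31, adjusted p = 0.0457). XPC passed at 0.28 ± 0.08 (limma adjusted p = 0.0433). Leaving out any of 11 of the 12 arrays ended that call, with adjusted p of 0.0571 to 0.112. Subtracting each array's median (0.0748) or fitting the replicate number as a block (0.0582) also ended it.

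Of the metabolic targets, FUCA1, a lysosomal fucosidase, had 6.77, 7.04 and 7.01 against 5.97, 5.51 and 5.93, a 2.20-fold difference. It differed more under the compounds, by 1.42 ± 0.10 (limma adjusted p = 2.1e-06), with means of 8.77 and 7.43 under RG7112 and 9.16 and 7.66 under HDM201. SESN1, a sestrin that restrains mTORC1, had 8.69, 8.76 and 8.52 against 7.95, 8.04 and 7.93 and passed on treated arrays (0.55 ± 0.11, adjusted p = 0.00579). These genes separated cleanly, while TIGAR, which lowers glycolytic flux, did so only by a margin below the second decimal. It had 6.80, 7.68 and 7.45 against 6.80, 5.97 and 6.33. SESN3 is another sestrin, which is regulated by FOXO factors, and was picked after its values were seen. It differed by 0.85 on DMSO arrays and by 0.36 ± 0.08 on treated arrays (limma adjusted p = 0.00939). PLTP, a phospholipid transfer protein, was the 1 p53 target with the DMSO sets separated the other way, at 9.14 ± 0.04 and 9.28 ± 0.03. Under the compounds it had 11.93 and 10.69 (RG7112) and 12.43 and 10.84 (HDM201), with replicates 1 to 3 higher by 1.41 ± 0.12 (adjusted p = 9.04e-06).

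Of the p53 target lists, apoptosis genes had the lowest share of separated members. Only BAX (0.42) and TNFRSF10B, the death receptor DR5 (0.39), of 15 did not overlap on the DMSO arrays. FAS, the receptor of FAS ligand, had 7.22, 7.97 and 7.99 against 7.12, 7.36 and 7.14, so the first replicate lay within the range of the other set. TP53I3, an oxidoreductase that p53 induces, had 7.39, 7.24 and 7.50 against 7.34, 7.34 and 7.55 and a difference of -0.03 ± 0.10 (SE). On treated arrays 10 of the 15 passed. TP53I3 was then 0.88 ± 0.08 higher in replicates 1 to 3 (limma adjusted p = 1.51e-05), FAS 0.80 ± 0.08 (5.36e-05) and TNFRSF10B 0.39 ± 0.07 (0.00435), and BAX differed by 0.10 ± 0.08 (0.516).

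The remaining 25 targets had 6 separated members. TRIM22, an interferon-inducible TRIM protein that p53 also induces, had 9.39, 9.40 and 9.30 against 8.11, 8.49 and 8.47, and CYFIP2 had 7.98, 8.36 and 8.39 against 7.63, 7.03 and 7.21. GDF15, a secreted stress cytokine, overlapped at 7.07, 7.46 and 7.30 against 7.07, 7.27 and 6.61. Under the compounds GDF15 had the largest treated difference among the 73 genes of these lists, 1.54 ± 0.13 (limma adjusted p = 9.04e-06), and SPATA18, a mitochondrial quality control gene, went from 0.27 to 1.22 ± 0.15 (0.000282). TRIM22 passed at 0.33 ± 0.08 (0.017), a call lost without replicate 6 of HDM201 (adjusted p = 0.0522), whereas CYFIP2 did not pass (0.33 ± 0.10, 0.0648) except without replicate 3 of RG7112 and in some other settings. EDA2R, a TNF receptor family member, was 0.65 higher in DMSO replicates 1 to 3 and differed by -0.15 ± 0.15 on treated arrays (adjusted p = 0.654).

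Myeloid genes gave both directions. Of 42 monocyte and macrophage genes, 6 were higher in replicates 1 to 3 on the DMSO arrays (S100A9, S100A8, CD36, CCR2, LYZ and FCGR1A). The other way 3 were higher in replicates 4 to 6 (CD180, CSF1R and MSR1), and the median was -0.01. Over all probes the shares are 7.11% and 6.95%, so the 3 lay near the background. On treated arrays 4 of the 42 passed with replicates 1 to 3 higher and 3 with them lower, against 3.09% and 3.5% of all probes. S100A8 and S100A9 together form calprotectin, an abundant protein of monocytes and neutrophils. S100A9 had 7.89, 7.76 and 7.61 against 6.45, 6.44 and 6.35, a 2.53-fold difference. S100A8 had 9.16, 8.81 and 8.24 against 7.74, 7.29 and 7.66. The sets were separate for both, most tightly for S100A9. On treated arrays S100A9 passed (0.93 ± 0.22, limma adjusted p = 0.0182, lost at 0.0511 without replicate 6 of RG7112), and S100A8 did not (0.76 ± 0.30, limma adjusted p = 0.156), though it did without replicate 3 of RG7112 (1.07, adjusted p = 0.00194).

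CD36, a scavenger receptor, was 0.55 higher in replicates 1 to 3 and passed on treated arrays as well (0.45 ± 0.08, limma adjusted p = 0.00455). CCR2, the chemokine receptor of classical monocytes, was also 0.55 higher with DMSO but differed by -0.47 ± 0.18 on treated arrays (adjusted p = 0.138). In the other direction CD180, a Toll-like receptor relative, had 8.12, 8.41 and 8.21 against 9.07, 9.15 and 9.28. Its treated difference was -2.04 ± 0.40 (limma adjusted p = 0.00624), and -1.59 without replicate 3 of RG7112, which read 3.73. CSF1R, the M-CSF receptor, differed by -0.38 with DMSO and by -0.78 ± 0.13 when treated (adjusted p = 0.00254). These 4 genes were picked after their values were seen. ITGAM (CD11b), a differentiation marker of myeloid cells, had 6.11, 5.48 and 5.98 against 5.66, 6.34 and 5.78. It showed no separation with DMSO, but under the compounds it was 1.29 ± 0.14 higher in replicates 1 to 3 (limma adjusted p = 9.67e-05). CD14 overlapped with DMSO (0.17) and did not pass (0.17 ± 0.17, adjusted p = 0.643).

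SERPINB10, a serpin of haematopoietic cells, had the widest DMSO difference towards replicates 1 to 3. Its signals were 9.42, 9.08 and 9.02 against 7.12, 7.19 and 7.02, which is 4.17-fold. TCN1, a vitamin B12 binder of neutrophil granules, had means of 7.12 ± 0.13 and 5.49 ± 0.11 (SD, n = 3), with no overlap. Neither gene was on a p53 list here, and the DMSO difference was wider than that of CDKN1A (1.65) for SERPINB10 and close to it for TCN1 (1.63). On treated arrays SERPINB10 passed at 0.90 ± 0.19 (limma adjusted p = 0.00979) and TCN1 at 0.54 ± 0.14 (0.033), although TCN1 lost its call without any 1 of 7 arrays (adjusted p of 0.0539 to 0.0805). Among granule genes CTSG (cathepsin G) was 0.43 higher in replicates 1 to 3 with DMSO, while MMP9, the gelatinase of tertiary granules, was lower there, at 7.56, 6.79 and 6.42 against 7.68, 8.18 and 8.34. BPI (-0.42, means of 4.73 and 5.15) and MMP8 (-0.37, 4.22 and 4.58) were also lower, but at dim signals below the array medians. Both were picked after their values were seen. The granule genes did not move together: 1 of 23 was higher in replicates 1 to 3 and 4 were higher in replicates 4 to 6. Over all probes these shares are 7.11% and 6.95%. MMP9 passed on treated arrays at -0.72 ± 0.19 (limma adjusted p = 0.0367), a call lost without any 1 of 7 arrays (0.0607 to 0.0927).

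Receptors and regulators of the progenitor state varied by gene. FLT3, the receptor tyrosine kinase of progenitors and AML blasts, had 8.55, 8.74 and 8.33 against 8.83, 8.96 and 9.04 and was 1.32-fold lower in replicates 1 to 3. Its treated difference was -1.06 ± 0.10 (limma adjusted p = 2.68e-05). CEBPA and SPI1, which drive granulocyte and monocyte development, differed by 0.04 and 0.02 and overlapped, and MPO (myeloperoxidase) by -0.06. Of the 19 progenitor genes 2 were separated, FLT3 and THY1, both lower in replicates 1 to 3, as were 6.95% of all probes. A count this small was not tested against that share. THY1 was dim, at 4.44 ± 0.07 and 4.73 ± 0.13.

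Genes that were at least 2-fold apart outside the p53 and myeloid lists had varied functions. Higher in replicates 1 to 3 were APOBEC3H, a cytidine deaminase that restricts retroviruses, PTGER3, a prostaglandin E2 receptor, PDPN (podoplanin), a membrane mucin, PDE7B, a cyclic AMP phosphodiesterase, and WLS, which carries Wnt proteins to the cell surface. APOBEC3H had 7.13, 7.30 and 7.08 against 6.15, 5.82 and 5.78. Under the compounds it did not pass. The means were 8.61 and 8.51 with RG7112 and 8.52 and 8.49 with HDM201, a difference of 0.07 ± 0.11 (limma adjusted p = 0.801). PDPN had 6.30, 7.34 and 7.68 against 6.30, 5.72 and 5.53, again with replicates 1 and 4 equal to the second decimal. Its treated difference was larger, at 1.92 ± 0.25 (adjusted p = 0.000345). MARVELD2, the tight junction protein tricellulin, had 6.04, 6.07 and 6.18 against 5.19, 4.85 and 4.84 and ICA1, an islet cell autoantigen, 6.65, 7.33 and 7.26 against 5.89, 6.06 and 6.03. Both kept their size on treated arrays, at 1.26 ± 0.21 (limma adjusted p = 0.00192) and 1.09 ± 0.12 (7.96e-05).

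Towards replicates 4 to 6 the widest differences were those of CACHD1, related to calcium channel subunits, SLC7A2, a transporter of cationic amino acids, and RRAS2, a Ras-family GTPase. CACHD1 had 3.48, 3.92 and 3.69 in replicates 1 to 3 against 5.96, 5.54 and 5.83, a 4.23-fold difference. SLC7A2 had 5.47, 5.86 and 5.55 against 7.52, 7.29 and 7.73. In replicates 1 to 3, CACHD1 thus lay close to the bottom of the scale, where a change in RNA gives little change in signal. IGF2BP1, an oncofetal mRNA-binding protein, had 8.18, 8.23 and 8.38 against 9.37, 9.45 and 9.47, and WASF3, a regulator of actin, 7.11, 7.59 and 7.38 against 8.35, 8.44 and 8.61. On treated arrays they passed at -1.41 ± 0.10 (CACHD1, limma adjusted p = 2.18e-06), -1.44 ± 0.14 (SLC7A2, 3.36e-05), -1.64 ± 0.14 (IGF2BP1, 1.06e-05) and -1.13 ± 0.16 (WASF3, 0.0008). These genes were thus lower in replicates 1 to 3 whether or not the cells had met an MDM2 inhibitor. NEDD4L, a ubiquitin ligase of ion channels, went from -1.32 with DMSO to -1.89 ± 0.24 (adjusted p = 0.000322), and HVCN1, a proton channel of phagocytes, from -1.04 to -1.41 ± 0.17 (0.000233).

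CACHD1 and RAVER2 lie next to each other in the RefSeq gene order of chromosome 1, the 1 such pair at 2-fold among 17661 genes placed in order. RAVER2, which encodes an RNA-binding protein, had 4.68, 4.73 and 4.64 against 6.30, 6.09 and 6.18, and -1.40 ± 0.15 on treated arrays (limma adjusted p = 6.52e-05). The genes directly beside the pair were UBE2U before CACHD1, at -0.08 with overlapping sets, and JAK1 after RAVER2, at 0.26 with replicates 1 to 3 higher. Further on, after JAK1 and LINC01359, lies AK4, a mitochondrial adenylate kinase, with a DMSO difference of -1.35 and overlapping sets, and -1.30 ± 0.23 on treated arrays (adjusted p = 0.00319). LINC01359 was at -0.17 with DMSO. At 1.5-fold 4 pairs were found, the further ones being MDM2 and CPM, DLX4 and DLX3, and MARVELD2 and OCLN, and no run was longer than 2 genes.

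Of the 44 probes at least 2-fold apart with DMSO, 33 passed in the same direction on treated arrays. They were 18 of 26 (69.2%) towards replicates 1 to 3, where 3.09% of all probes passed, and 15 of 18 (83.3%) towards replicates 4 to 6, where 3.5% did, and none passed in the opposite direction, also at an unadjusted limma p under 0.05 (0 of 44). The median differences of these probes were 1.18 with DMSO and 0.75 treated, and -1.15 and -0.93. All 5 genes on the p53 lists passed, as did 12 of the 18 named genes not on them towards replicates 1 to 3 and 14 of 16 towards replicates 4 to 6. Those that did not were KYNU, IGSF10, DAPP1, S100A8, MS4A6A and APOBEC3H on one side and FMNL2 and MATN2 on the other. Absence from the p53 lists does not mean that a gene was unchanged by the compounds. In replicates 1 to 3 MARVELD2 read 6.09 with DMSO and 7.94 with HDM201, and SERPINB10 9.17 and 8.41. Without replicate 3 of RG7112, 36 of the 44 passed. When each compound was fitted alone, 4 of 44 passed with the RG7112 arrays and 24 with the HDM201 arrays, and the number of probes passing overall dropped from 1412 to 29 and 809. Weighting the arrays raised it to 2311, and leaving out replicate 3 or replicate 6 of HDM201 gave 912 or 914. Without DMSO replicate 4 the 44 probes became 70.

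**Figure D2:**
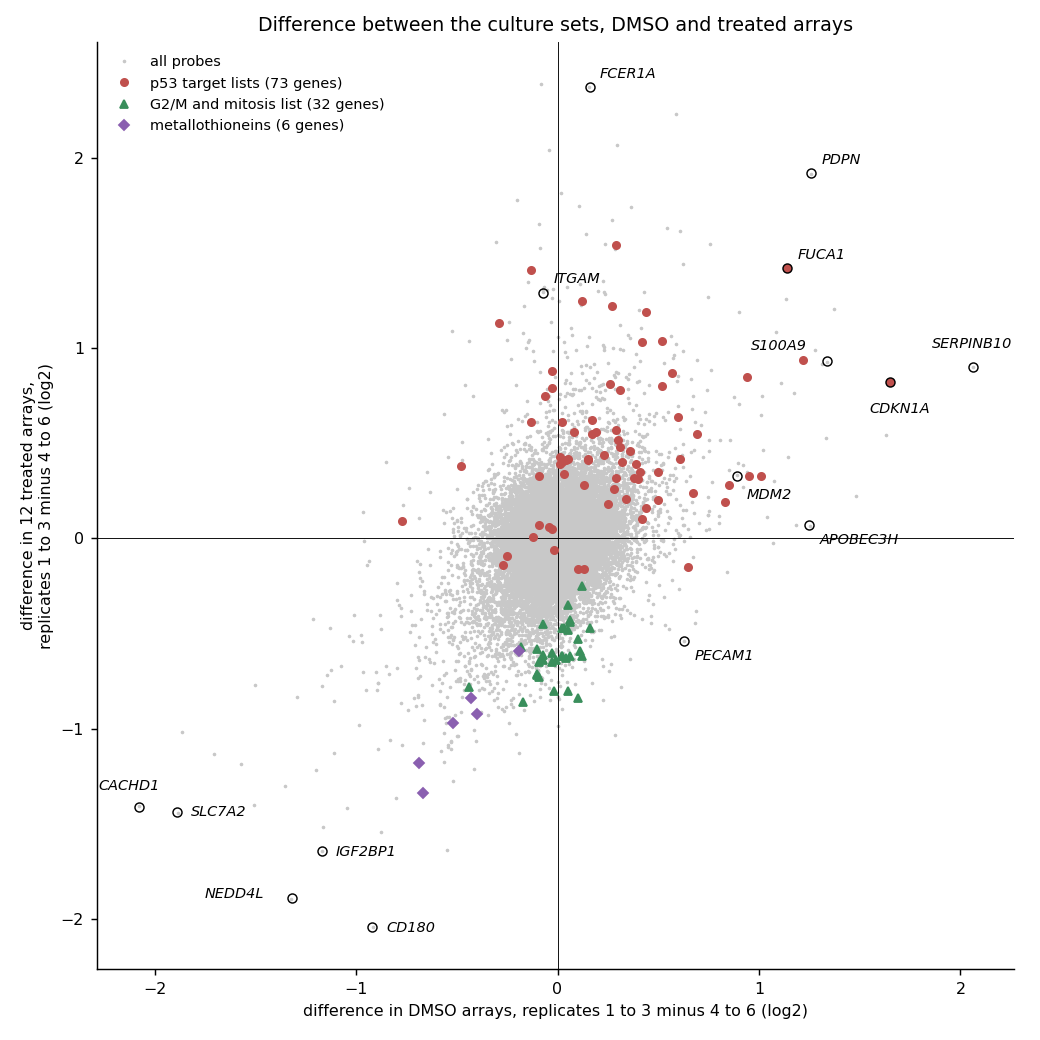
Difference between the sets (replicates 1 to 3 minus 4 to 6, log2) on the 6 DMSO arrays (horizontal) and the 12 treated arrays (vertical, limma), one dot per probe. Red circles are the 73 measured p53 targets, green triangles the 32 G2/M genes and purple diamonds 6 metallothioneins, and black rings mark labelled genes. G2/M genes sit near 0 on the horizontal axis and below 0 on the vertical one, with a median of -0.62.

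Probes whose sets were separate in the same direction with DMSO, RG7112 and HDM201 numbered 194 towards replicates 1 to 3 (0.905%) and 274 towards replicates 4 to 6 (1.28%). Of the 73 p53 targets 20 were among them, all towards replicates 1 to 3. At 2-fold or more in each group there were 12 such probes, FUCA1, ICA1, PDPN and a probe without a symbol on one side and CACHD1, SLC7A2, RAVER2, NEDD4L, IGF2BP1, DENND11, WASF3 and HVCN1 on the other. MARVELD2 and CLSTN2 (calsyntenin 2) fell short of it, the latter, with 9.27, 9.46 and 9.23 against 8.45, 8.50 and 8.31 on DMSO arrays and 1.19 ± 0.09 on treated arrays (limma adjusted p = 2.18e-06).

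**Figure D3:**
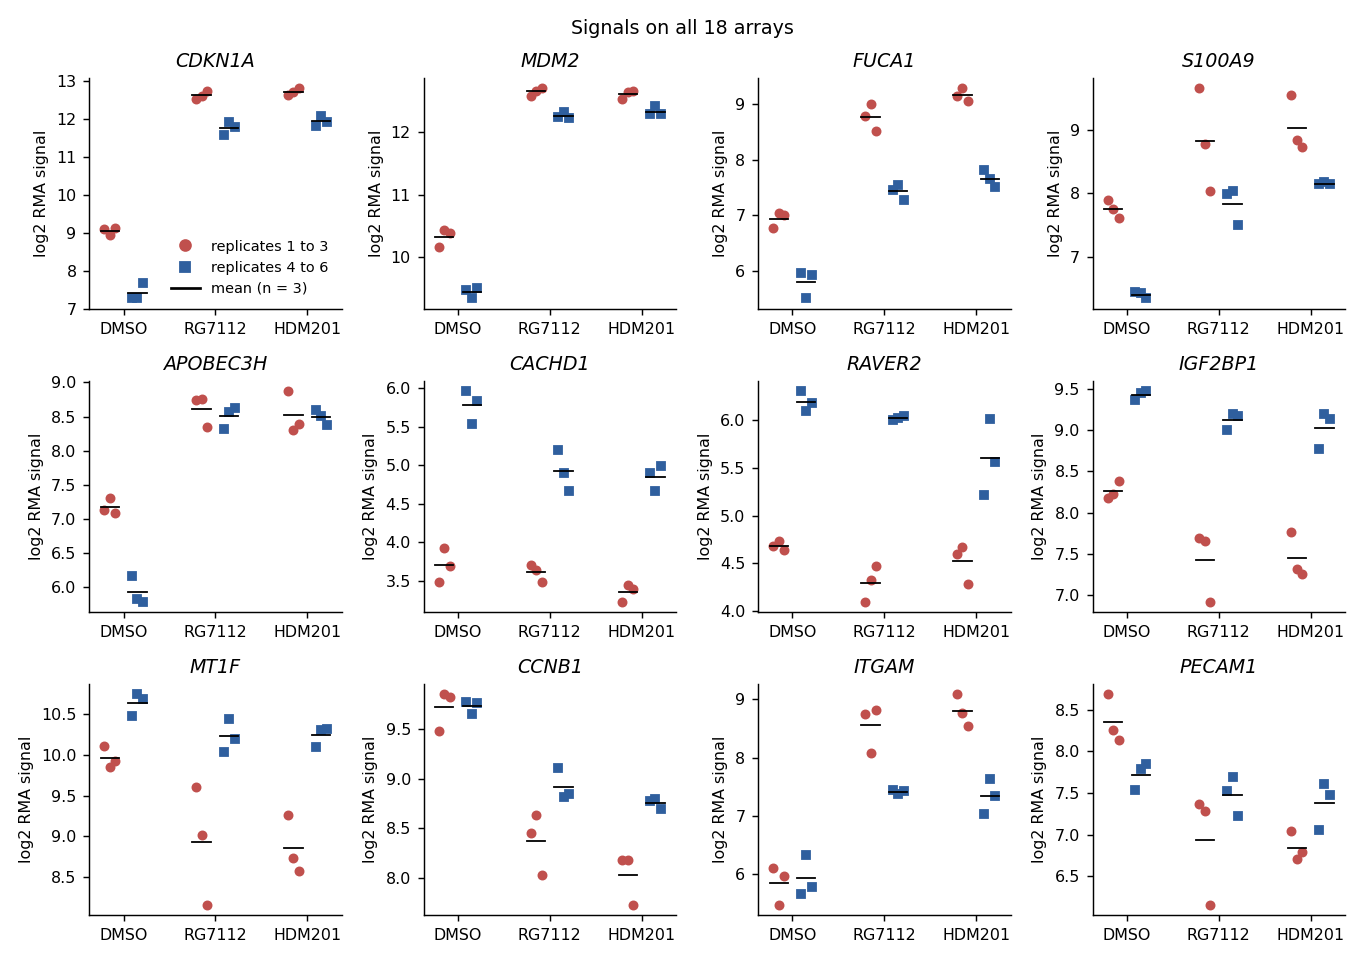
Log2 RMA signals of 12 genes on all 18 arrays, by group (red circles, replicates 1 to 3; blue squares, replicates 4 to 6; lines, means of 3 arrays). The sets of FUCA1 and IGF2BP1 are separate in every group, those of APOBEC3H only with DMSO, those of CCNB1 and ITGAM only with the compounds, and the means of PECAM1 change order.

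Most cell cycle genes overlapped between the DMSO sets. Of 32 G2/M genes 0 were higher in replicates 1 to 3 and 1 (ECT2) in replicates 4 to 6, with a median difference of 0.02 and mean signals of 9.75 ± 0.09 and 9.76 ± 0.05. CCNB1 (cyclin B1) had 9.48, 9.85 and 9.82 against 9.77, 9.65 and 9.76, and MKI67 (Ki-67) 11.39, 11.34 and 11.06 against 11.27, 11.30 and 11.31. On these arrays the higher CDKN1A signal of replicates 1 to 3 therefore stood beside overlapping signals of mitotic genes. On treated arrays 26 of the 32 passed with replicates 1 to 3 lower, with a median of -0.62, and 28 did without replicate 3 of RG7112. CCNB1 differed by -0.64 ± 0.12 (limma adjusted p = 0.00376), ASPM, a spindle protein, by -0.71 ± 0.10 (0.000771) and AURKB (Aurora B) by -0.62 ± 0.09 (0.000771). MKI67 passed at -0.65 ± 0.16 (0.0229), a call lost without replicate 4 of RG7112 or replicate 3 of HDM201 (up to 0.0653). The G1/S list showed the same order, with 1 and 3 of 36 separated on DMSO arrays and 1 and 10 passing on treated arrays. MYC was slightly lower in DMSO replicates 1 to 3 (10.93 ± 0.04 against 11.05 ± 0.05) and passed on treated arrays at -0.53 ± 0.11 (adjusted p = 0.00881). CCNB1, ASPM and AURKB were picked after their values were seen.

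Of 29 NRF2, glutathione and metallothionein genes 2 were higher in DMSO replicates 1 to 3, 8 were lower and 19 overlapped, with a median of -0.03. On treated arrays 1 passed higher and 5 lower, and without replicate 3 of RG7112 4 and 8. The metallothioneins, and the IFITM genes, MX2 and CMPK2 below, were singled out after their values were seen. All 6 measured metallothioneins, small proteins that bind zinc and copper, were lower in replicates 1 to 3 with DMSO, with differences from -0.19 (MT1E) to -0.69 (MT2A). MT1F had 10.11, 9.85 and 9.93 against 10.48, 10.74 and 10.69 and MT2A 11.06, 10.74 and 10.88 against 11.24, 11.93 and 11.57. The genes are near-identical copies, so their probes may share signal and the 6 are not independent. On treated arrays 5 passed, MT1F at -1.34 ± 0.19 (limma adjusted p = 0.000707) and MT2A at -1.18 ± 0.26 (0.0139) among them, and MT1E did not (-0.59 ± 0.18, 0.0609). The interferon-induced membrane proteins IFITM1, IFITM2 and IFITM3, also similar neighbouring copies, were also lower, with DMSO differences of -0.53, -0.55 and -0.58. All 3 passed on treated arrays, at -0.51 ± 0.13 (adjusted p = 0.025, lost without any 1 of 5 arrays, up to 0.0699), -0.83 ± 0.18 (0.0102) and -0.76 ± 0.17 (0.0136). The other interferon genes went both ways. Over the 38 of the list 6 were higher in replicates 1 to 3 with DMSO and 5 in replicates 4 to 6 (the IFITM genes, IFI27 and BST2), with a median of 0.03. On treated arrays 2 passed with replicates 1 to 3 higher, TRIM22 and HERC5 (0.66 ± 0.12, adjusted p = 0.00348), and 5 with them lower, the IFITM genes, MX2 (-0.41 ± 0.10, 0.0294, lost without any 1 of 5 arrays, up to 0.0718) and CMPK2 (-0.42 ± 0.11, 0.0265, lost without any 1 of 6, up to 0.0717). CMPK2 had been 0.32 higher in replicates 1 to 3 with DMSO.

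Most genes of lipid and sugar metabolism had lower means in replicates 1 to 3 with DMSO, but few were separated. The mean signals of both lists on single arrays also overlapped between the sets. For 25 genes of cholesterol and fatty acid metabolism the median was -0.23, and 4 were separated, all lower in replicates 1 to 3. The list means were 8.55 to 8.92 on DMSO replicates 1 to 3 and 8.79 to 9.03 on replicates 4 to 6. SCD, the stearoyl-CoA desaturase, had 10.55, 9.96 and 9.92 against 10.64, 11.19 and 11.27 and passed on treated arrays (-1.11 ± 0.15, limma adjusted p = 0.000527). Replicates 1 and 4 again lay next to each other. Over the list 4 genes passed lower and 1 higher on treated arrays, and the median there was -0.02. Among 34 glycolysis and hypoxia genes the median was -0.24 and 2 of the 34 differences were positive, but 1 gene was separated, PFKM (muscle-type phosphofructokinase), at 7.91 ± 0.03 against 8.25 ± 0.03. The list means were 9.21 ± 0.33 and 9.50 ± 0.32 (SD, n = 3). They reached up to 9.59 in DMSO replicates 1 to 3 and down to 9.16 in replicates 4 to 6. ALDOC of this list and FADS2 of the lipid list followed a division across the sets, described further below. Whether the other members followed it was not tested. On treated arrays 6 of the 34 passed with replicates 1 to 3 lower and 1 with them higher, and PFKM was at -0.61 ± 0.10 (adjusted p = 0.00133).

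Among replication-dependent histones 2 of 43 were higher in DMSO replicates 1 to 3 and 7 in replicates 4 to 6, with a median of -0.05. On treated arrays 0 passed higher and 2 lower, and without replicate 3 of RG7112 0 and 15. H2BC14 was at 11.47 ± 0.11 against 12.14 ± 0.10 (treated -1.08 ± 0.20, limma adjusted p = 0.00494). Ribosomal protein genes (2 and 0 of 17), oxidative phosphorylation genes (3 and 1 of 25) and housekeeping genes (1 and 1 of 13) had medians of 0.01, 0.00 and 0.03, and no member of the ribosomal and oxidative lists passed on treated arrays. At an unadjusted limma p under 0.05, 0 ribosomal genes differed, and 5 oxidative phosphorylation genes were lower in replicates 1 to 3. Lymphocyte markers (1 and 1 of 19, summarised by mean signals of 5.99 to 6.15 on replicates 1 to 3 and 6.00 to 6.15 on replicates 4 to 6) and erythroid and megakaryocyte markers (0 and 0 of 16, 5.36 to 5.61 and 5.43 to 5.54) also lay at the background. Of 18 fibroblast, endothelial and epithelial markers 3 were higher in replicates 1 to 3 (ACTA2, PECAM1 and CDH5) and 1 lower (KDR), with mean signals of 5.54 to 5.64 and 5.44 to 5.53. ACTA2, smooth muscle actin, had 9.07, 8.78 and 8.83 against 7.93, 8.12 and 8.11, and the treated difference was -0.18 ± 0.14 (limma adjusted p = 0.544). The part of these marker genes in the other results was not tested.

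**Figure D4:**
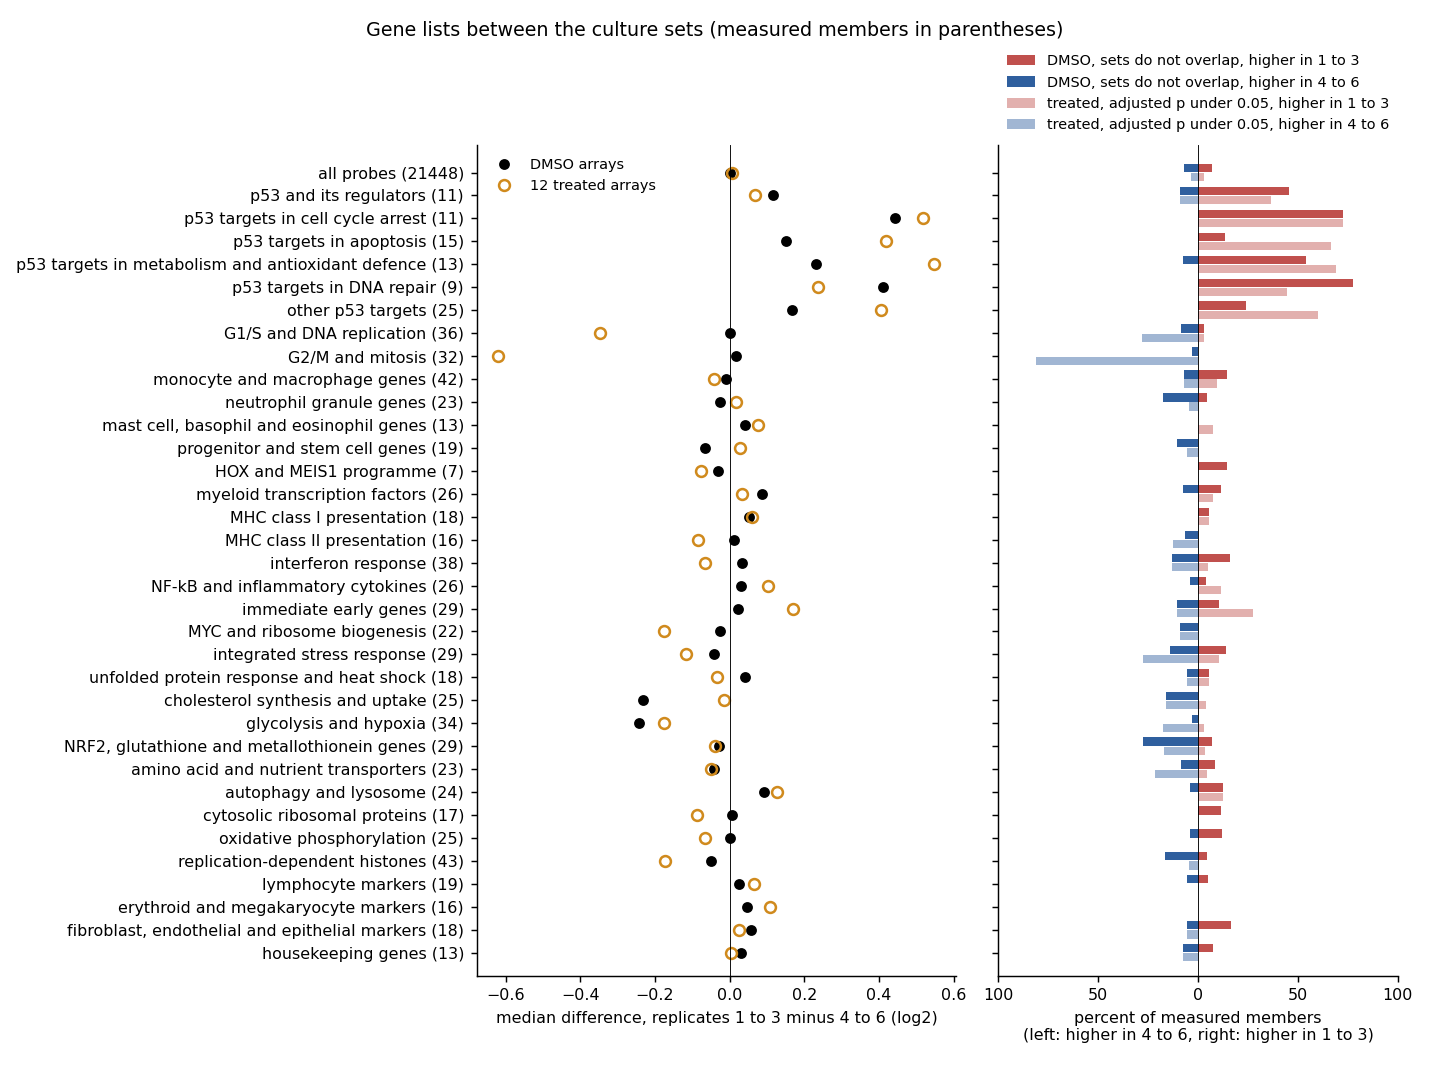
Gene lists between the sets. Left, median difference (replicates 1 to 3 minus 4 to 6, log2) over the measured members, on DMSO arrays (black) and treated arrays (orange rings). Right, percent of members separated with DMSO (dark bars) or passing on treated arrays (light bars), higher in replicates 1 to 3 to the right and higher in replicates 4 to 6 to the left. By their medians the p53 lists lie to the right on both kinds of array and the G2/M list to the left on treated arrays alone. In the right panel 1 of 11 p53 regulators lies to the left on both kinds. With DMSO, 1 of 13 metabolic p53 targets and 1 of 32 G2/M genes also lie to the left.

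The 2-fold DMSO differences were not shared evenly by the arrays. For each of the 44 probes the array of each set nearest to the other set was noted, and it was replicate 1 for 21 probes on the first side and replicate 4 for 27 on the second, against 10 and 13 for replicates 2 and 3 and 9 and 8 for replicates 5 and 6.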

How the data were processed

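RNA of OCI-AML3 cells was measured on 18 arrays, 6 per group. The authors deposited log2 signals made with the oligo package and RMA (background correction, quantile normalization, probe set summary), per the submitters' processing notes, so arrays share one scale and small shifts of all genes are removed. Versions and the build were not given in the sources used here. Of 21448 probes 17709 carry 1 symbol, 0 several and 3739 none. For 20 symbols with several probes the one with the highest mean was used. Some genes are not reported here.

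Replicates 1 to 3 and 4 to 6 were compared on the DMSO arrays by means, SDs and overlap, with no test. The 12 treated arrays were fitted with limma 3.58.1 in R 4.3.3 (compound means plus a set term, default empirical Bayes), which was tested on simulated data. Their number limits the precision. The members and 34 gene lists (838 genes, 740 measured) were chosen with earlier results of these data known. Named genes are a fixed set of 32 (28 measured), the 12 highest and 12 lowest DMSO differences with separated sets, the 8 most persistent each way and up to 2 of each list, 99 in all. A further 48, and other list members given for context, were chosen after their values were seen. Alternatives were other priors, array weights, filters on dim probes, median and quantile scaling, each compound alone, all arrays, a replicate block and leaving out each array.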

Additional observations from a re-analysis of the deposited data

Results flagged for a closer look

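In each group of 6 arrays the highest or lowest array was compared with the others by Dixon's criterion, for the 147 genes with values here. Of 441 groups 17 had an array far from the rest. The roughly 1 in 20 that chance gives holds for independent values of a single distribution. Genes on the same array are not independent and each group mixes the 2 sets, so the total was not judged against it. The flags were not spread evenly over the arrays: of the 17, 14 were replicate 3 of RG7112. On that array BAX (11.41, others 10.99 to 11.10) and ZMAT3 (10.16, others 9.82 to 9.94) were high. It was low for IL1RN (7.60), FOSL1 (8.13), NCL (10.34), RPS15 (11.47), COX5B (8.28), ACTA2 (9.58), PECAM1 (6.16), MT1E (9.64), CCR2 (8.42), EDA2R (7.13) and SAMD9L (6.52). CD180 read 3.73 there against 6.59 to 7.93 on the other RG7112 arrays, and its treated difference was -2.04 with the array and -1.59 without it. On the DMSO arrays MKI67 was low in replicate 3 (11.06, others 11.27 to 11.39) and NFKBIE in replicate 5 (7.68, others 7.85 to 7.94), and MX2 was high in replicate 5 (9.41, others 9.09 to 9.21).

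In 3 genes the sets were separate in opposite directions in different groups, a difference between groups that was not tested. PECAM1, an adhesion molecule of endothelium and leukocytes, had 8.68, 8.25 and 8.13 against 7.53, 7.79 and 7.85 with DMSO, so replicates 1 to 3 were higher by 0.63. With HDM201 they were lower, with a difference of -0.54. PLTP differed by -0.13 with DMSO, by 1.24 with RG7112 and by 1.59 with HDM201. CMPK2, an interferon-induced nucleotide kinase, differed by 0.32 with DMSO and by -0.56 with HDM201. Over all probes, the sets were separate with DMSO for 3016, with RG7112 for 3226 and with HDM201 for 5332. Of the 3016, 74 were separate in the opposite direction with RG7112 and 680 in the same direction. With HDM201 these numbers were 143 and 945. Opposite cases were thus the smaller part under both compounds, and how many the totals alone would give was not tested.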

How the results depend on the processing

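The number of probes passing on treated arrays was 1412, and 1188 to 1842 under a trended prior, 2 filters on dim probes, named probes only, median or quantile scaling, all 18 arrays and the replicate block. It was 2311 with array weights, 29 with RG7112 arrays alone, 809 with HDM201 arrays alone and 912 to 1982 leaving out 1 array. Of the 2-fold DMSO probes 33 passed, 20 among probes at or above the median signal (a filter that leaves fewer of them), 4 with RG7112 alone and 27 to 36 leaving out 1 array. The 44 DMSO probes became 187 at 1.5-fold, 2 at 4-fold and 40 to 70 leaving out 1 array. The 468 probes separate in all 3 groups became 12 at 2-fold and 484 to 655 leaving out 1 array, and the neighbouring pairs rose from 1 to 4 at 1.5-fold. Leaving out an array eases the rule of no overlap, so the 468 could not fall that way. The cause of the other shifts was not tested beyond what each setting removes. With the replicate number as a block, 1188 probes passed (569 and 619 by direction). Same-numbered RG7112 and HDM201 arrays had correlated deviations of -0.046 to 0.332. These were over 0.1 for 4 of 6 numbers and highest for the own number in 4 of 6. The main fit takes samples as unpaired, because not every correlation was over 0.1. Its p-values thus treat the 12 arrays as independent, which the labels do not establish. For the 147 genes, 3043 of 3345 treated values kept their side of the threshold, 251 lost it, 51 gained it and 0 reversed. Of 1176 DMSO values 0 counted as reversed, but leaving out an array cannot reverse separated sets, so this is no check of them. Where the DMSO sets overlapped, a small difference such as that of MDM4 (-0.10) could change sign with 1 array left out. Of 94 genes that passed, 76 did so under every setting that kept both compounds, and 12 under every setting, each compound alone included. Some of these genes were picked after their values were seen, so the shares do not describe all probes.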

Other observations

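Some metabolic genes followed a division of the DMSO arrays that cuts across the sets. ALDOC (aldolase C) read 10.12, 8.35 and 8.31 on replicates 1 to 3 and 8.99, 10.54 and 10.20 on replicates 4 to 6. AK4, the gene near CACHD1 and RAVER2 named above, read 8.17, 6.96 and 6.71 and then 7.86, 9.12 and 8.92, and FADS2, a fatty acid desaturase, 11.39, 10.40 and 10.33 and then 11.04, 11.75 and 11.83. Replicates 1, 5 and 6 were high and replicates 2, 3 and 4 low in all 3 genes, the same division as in the first principal component. All 3 were picked after their values were seen. VCAN (versican), a monocyte gene, had means of 7.72 ± 1.18 and 8.89 ± 0.45 (SD, n = 3), and its sets overlapped. On treated arrays AK4 (-1.30 ± 0.23, limma adjusted p = 0.00319) and FADS2 (-1.06 ± 0.23, 0.0109) were lower in replicates 1 to 3, and ALDOC at -0.98 ± 0.28 (0.047) lost its call without any 1 of 8 arrays (0.0679 to 0.115) and in 5 other settings (up to 0.102).

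Other genes overlapped with DMSO and differed once the cells had met a compound. FCER1A, the alpha chain of the IgE receptor, lay near the bottom of the scale with DMSO, at 3.38, 3.82 and 3.78 against 3.41, 3.55 and 3.55. It stood at 9.66 and 7.31 with RG7112 and at 10.00 and 7.60 with HDM201, a treated difference of 2.37 ± 0.15 (limma adjusted p = 8.67e-07). The transcription factor JUN (1.30 ± 0.14, 6e-05), the tetraspanin CD82 (1.25 ± 0.11, 2.01e-05) and CSF1, the growth factor of macrophages (1.13 ± 0.15, 0.000345), were likewise higher in replicates 1 to 3 when treated, while their DMSO sets overlapped. Of the 13 mast cell, basophil and eosinophil genes FCER1A was the 1 that passed. FCER1A, JUN, CD82 and CSF1 were picked after their values were seen.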
